A study of Mus musculus with 9 samples.

Results

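The alpha and mu classes of the glutathione S-transferases were followed in mouse liver through 10 listed genes, Gsta1, Gsta2, Gsta3, Gsta4, Gstm1, Gstm2, Gstm3, Gstm4, Gstm6 and Gstm7. They were chosen by class and looked up by gene name in the authors' table of gene expression, in which 7 of the 10 had a row of their own name among 26345 entries with a known transcript and a name, and 52151 entries in all. The other 3 lay inside entries that carry a neighbour's name. Gsta1 shared an entry with Gm3776, Gstm6 shared an entry with Gstm3, and Gstm1 shared an entry with Gstm4.

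The study fed C57BL/6 mice, labelled as 8 weeks old, for 5 weeks and sequenced total liver RNA after removal of ribosomal RNA, with 3 libraries in each of 3 groups. Pair-fed mice (PF) received an isocaloric liquid diet without alcohol, and alcohol-fed mice (AF) received the Lieber-DeCarli diet, the standard liquid diet by which rodents are given ethanol. In the AF with MNA group the mice were on that alcohol diet and were also given MNA into the abdominal cavity at 50 mg/kg; the labels do not spell MNA out. The strain labels of these 3 libraries read C57BL/7, C57BL/8 and C57BL/9 in place of C57BL/6. No transgene or knockout was involved, the PF and AF mice were male by the study's methods, and no pooling of animals was stated. No group received MNA without alcohol, so MNA was compared only on the alcohol diet.

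Glutathione S-transferases join the tripeptide glutathione to reactive, electron-poor compounds such as lipid aldehydes, epoxides and quinones, which makes them soluble and ready for export. The alpha and mu enzymes are among the cytosolic transferases of liver. Ethanol metabolism yields acetaldehyde and lipid peroxidation products that draw on the same glutathione. Transcription of these genes is known to be raised by NRF2 at antioxidant response elements and by the xenobiotic receptors CAR and PXR.

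Expression was given as FPKM, fragments scaled to transcript length and to the mapped fragments of the library, so levels of different genes could be set side by side. The relative depth of the 9 libraries ranged from 1 to 1.42, and no read counts of genes were given, so precision was judged by the spread between libraries. The hepatocyte markers Alb, Apoa1, Ttr, Serpina1c and Tat summed to between 15447 and 22648 FPKM in every library, which fitted the labelled tissue. Transcripts inside introns summed to 9433 FPKM in AF replicate 3 and 8934 FPKM in AF with MNA replicate 1 against 2477 to 4937 FPKM in the other 7 libraries, and results are given without these libraries where that matters. Because whole liver was sequenced, more RNA per hepatocyte and more cells of the type that carries the RNA cannot be told apart.

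A gene was called when its unadjusted p in limma was under 0.05 and the log2 ratio of its group mean FPKMs was above 1 or below -1, the threshold of the study's methods; p-values adjusted over all tested genes are given beside it. With 3 libraries a group, an exact permutation test of a single gene cannot go below p = 0.1. The 3 comparisons share libraries, and their values are set side by side only.

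The alpha genes lie in a row on chromosome 9, except Gsta3 on chromosome 1. On the mouse build GRCm38, Gsta4 spans chr9:78182774-78209349, Gsta1 chr9:78230656-78242684 and its near copies Gm3776 chr9:78257129-78269166 and Gm10639 chr9:78289923-78305525, all on the plus strand, and Gsta2 spans chr9:78331018-78355788 on the minus strand. Gsta3 spans chr1:21240589-21265661 on the plus strand. The listed mu genes all lie on the minus strand of chromosome 3, in the order Gstm7 (chr3:107926334-107931817), Gstm6 (chr3:107938847-107943749), Gstm3 (chr3:107963696-107969283), Gstm2 (chr3:107981702-107986453), Gstm1 (chr3:108012255-108017973) and Gstm4 (chr3:108040408-108044894). All of them are protein-coding genes in the GENCODE M21 annotation.

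The 250 bases before the start of Gsta1 and Gsta2, from RefSeq on GRCm38.p6, are shown because Gsta2 and the entry that holds Gsta1 rose from low levels, and those of Gsta3 because it is the alpha gene that barely moved. In Gsta1 (chr9:78230419-78230668, plus strand) and Gsta2 (chr9:78347146-78347395, minus strand) the capitals mark the longest run that these 2 windows share with those of Gm3776 and Gm10639. In Gsta3 (chr1:21240335-21240584, plus strand) they mark the antioxidant response element core. The RefSeq start behind the Gsta2 window lies inside the GENCODE span of Gsta2 given above, not at its outer end.
Gsta1: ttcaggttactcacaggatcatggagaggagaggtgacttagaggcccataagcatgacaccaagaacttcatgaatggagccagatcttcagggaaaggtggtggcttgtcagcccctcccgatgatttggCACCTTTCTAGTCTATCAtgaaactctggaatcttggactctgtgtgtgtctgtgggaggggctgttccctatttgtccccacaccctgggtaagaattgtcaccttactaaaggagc
Gsta2: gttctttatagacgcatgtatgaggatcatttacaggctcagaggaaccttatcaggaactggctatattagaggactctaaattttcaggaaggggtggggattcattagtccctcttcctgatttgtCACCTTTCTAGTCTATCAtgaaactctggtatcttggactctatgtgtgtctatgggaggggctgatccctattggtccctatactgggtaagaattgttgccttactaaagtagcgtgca
Gsta3: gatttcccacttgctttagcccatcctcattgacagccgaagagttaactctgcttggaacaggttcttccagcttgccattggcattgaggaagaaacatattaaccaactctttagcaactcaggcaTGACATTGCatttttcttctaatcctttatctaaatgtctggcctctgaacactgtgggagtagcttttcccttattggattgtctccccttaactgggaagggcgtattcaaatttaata
The shared run of 18 bases began 118 bases before the start of Gsta1, at -118, and at -121 in Gsta2, -105 in Gm3776 and -103 in Gm10639. These 4 windows were the only ones of 32851 RefSeq windows of the same length that held the run on the gene's strand. The Gsta1 window matched that of Gm3776 at 99.6% of aligned bases, that of Gm10639 at 99.1% and that of Gsta2 at 81.2%. The antioxidant response element core TGACNNNGC, searched on both strands, was present at -121 in Gsta3 and at -129 in 1 of the windows of Gstm7, and 10.2% of all windows hold it. The core GCGTG bound by the AHR was found at -7 in Gsta2 and, at a single site, before both starts of Gstm1 (-76 and -231), against 28.2% of all windows. No match to the nuclear receptor half-site AGGTCA, present in 14.0% of all windows, was found in the 14 windows of the 9 listed genes that RefSeq covered.

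Reads of near-identical copies limited how far single genes could be told apart. Of the stretches of 100 bases in the Gsta1 transcript, 81.8% also occurred in another gene of the family, mostly Gm3776, and for Gsta2 the share was 35.0%, mostly with Gm10639. The share was 3.80% for Gstm3, 2.41% for Gstm6 and 1.68% for Gstm1, and none was shared for Gsta3, Gsta4, Gstm2, Gstm4 or Gstm7. Thus the levels of Gsta1, Gm3776, Gm10639 and Gsta2 are uncertain in how the authors' counting divided shared reads between them.

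In PF liver the family was led by Gsta3 and by the Gstm4 entry. Gsta3 encodes the constitutive alpha enzyme of mouse liver, known for conjugating the epoxide of aflatoxin, and stood at 49.04, 44.89 and 60.90 FPKM in PF replicates 1, 2 and 3 (51.6 ± 8.31, SD, n = 3). The Gstm4 entry, which also holds Gstm1, the major mu enzyme of mouse liver, stood at 34.49, 40.16 and 62.05 FPKM. The ranges of these 2 entries overlapped, and both lay above those of all other members. Gstm7, Gstm2 and the Gstm3 entry followed at group means of 23.1, 21.2 and 16.1 FPKM, each overlapping its neighbour in the order, and Gsta4 at 13.1 FPKM overlapped the Gstm3 entry. Gsta2 was far lower at 1.70 FPKM, and the entry holding Gsta1 was lowest at 0.217 FPKM, neither overlapping the entry above it.

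**Figure D1:**
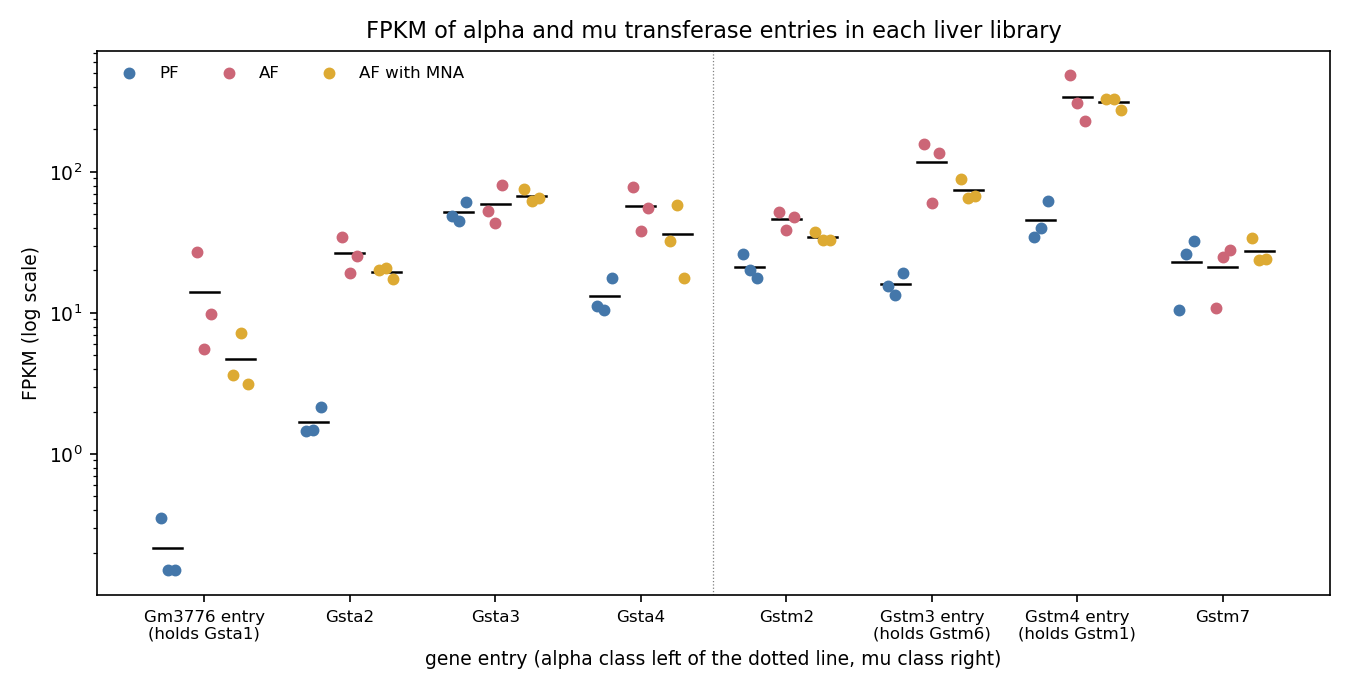
FPKM on a log scale of the 7 rows of listed genes and of the entry that holds Gsta1, 1 point per library and a black bar at the group mean (n = 3), with PF in blue, AF in red and AF with MNA in yellow. The Gsta1 entry, Gsta2, Gsta4, Gstm2 and the Gstm3 and Gstm4 entries lie higher in every AF library than in any PF library, while Gsta3 and Gstm7 overlap.

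Alcohol feeding raised 5 of the 7 members with a row, and none fell. Gsta2, the Gstm4 entry, the Gstm3 entry, Gsta4 and Gstm2 rose between 2.18-fold and 15.6-fold, and Gsta3 and Gstm7 did not pass the test. Of all 12268 genes tested, 1.95% were called higher and 4.3% were called in either direction. The same 5 members were higher in every AF library than in any PF library, which held for 8.18% of all genes tested. The median log2 ratio was 2.12 over the 7 members and -0.03 over all genes tested.

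Gsta2, the inducible alpha enzyme, was measured at 1.46, 1.48 and 2.15 FPKM in PF replicates 1, 2 and 3 and at 34.63, 19.20 and 25.44 FPKM in AF. Even the lowest AF library lay far above the highest PF library. The mean rose 15.6-fold, a log2 ratio of 3.96, and the limma difference on the log2(FPKM + 1) scale was 3.32 ± 0.23 (SE; unadjusted p = 3.36e-06, adjusted p = 0.00515). It had the smallest p of the members.

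The entry named Gm3776, which holds the 2 known transcripts of Gsta1 and 1 of Gm3776, was measured at 0.35, 0.15 and 0.15 FPKM in PF livers and at 27.14, 5.53 and 9.88 FPKM in AF. The groups were wide apart, and AF replicate 1 stood well above the other AF libraries. The difference was 3.38 ± 0.50 on the log2(FPKM + 1) scale (unadjusted p = 0.000342, adjusted p = 0.0771). The ratio of means was 65.5, a log2 ratio of 6.03, over a PF level close to 0, and the log2 ratio was 5.15 without AF replicate 1. The neighbour Gm10639 moved from 0.01, 0.05 and 0.10 FPKM in PF livers to 2.41, 1.38 and 1.5 FPKM in AF (difference 1.37 ± 0.16 on the log2(FPKM + 1) scale, adjusted p = 0.0348).

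Gsta4 encodes the alpha enzyme that conjugates hydroxynonenal, an aldehyde from lipid peroxidation. It was measured at 11.16, 10.55 and 17.61 FPKM in PF livers and at 77.89, 38.07 and 55.24 FPKM in AF, with no overlap between the groups. Its mean rose 4.35-fold, with a difference of 2.02 ± 0.30 (SE) on the log2(FPKM + 1) scale (unadjusted p = 0.000399, adjusted p = 0.0803). Gsta4 shares no stretch of 100 bases with another gene of the family.

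Gsta3 was measured at 52.45, 43.51 and 80.53 FPKM in AF, a range that covered all 3 PF libraries. The log2 ratio was 0.19 and the difference 0.15 ± 0.25 (SE, adjusted p = 0.859). The higher AF mean rested on AF replicate 3, a library of high intron signal, without which the log2 ratio was -0.11. Within the alpha class, then, the genes that were low in PF rose and the gene that was high in PF did not pass the test. Gsta3 made up 78.0% of the FPKM summed over Gsta2, Gsta3 and Gsta4 in PF livers and 41.6% in AF, with the Gsta1 entry left out.

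Among the mu genes the Gstm4 entry showed the largest gain in level. It was measured at 34.49, 40.16 and 62.05 FPKM in PF livers and at 482.76, 308.43 and 228.81 FPKM in AF. Every AF library lay above all PF libraries. The mean rose 7.46-fold, from 45.6 ± 14.6 to 340.0 ± 129.9 FPKM (SD, n = 3), with a difference of 2.85 ± 0.33 on the log2(FPKM + 1) scale (unadjusted p = 8.81e-05, adjusted p = 0.0328). The entry holds 4 known transcripts of Gstm1 and 3 of Gstm4, so the rise cannot be assigned to either gene. The noncoding transcript Gm12498, which lies between them and was given by itself in the lncRNA table, stood at no more than 0.0302 FPKM in any library.

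The Gstm3 entry, with 6 known transcripts of Gstm6 and 1 of Gstm3, was measured at 15.64, 13.50 and 19.14 FPKM in PF livers and at 158.18, 59.85 and 137.01 FPKM in AF. AF replicate 2 was the lowest of the AF libraries, as it was for Gsta2, Gsta3, Gsta4, Gstm2 and the Gsta1 entry, and still lay above all PF libraries. The mean rose 7.35-fold (difference 2.70 ± 0.37 on the log2(FPKM + 1) scale, unadjusted p = 0.000229, adjusted p = 0.0639). The adjusted p was 0.00813 without AF replicate 2 and between 0.130 and 0.182 without any other single library.

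Gstm2, another cytosolic mu enzyme, showed the smallest rise that was called. It was measured at 25.98, 20.04 and 17.70 FPKM in PF livers and at 51.90, 38.91 and 48.17 FPKM in AF, without overlap. Its mean rose 2.18-fold (difference 1.10 ± 0.19 on the log2(FPKM + 1) scale, unadjusted p = 0.000839, adjusted p = 0.106).

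Gstm7, the outermost of the listed mu genes, was measured at 10.43, 26.35 and 32.61 FPKM in PF livers and at 10.88, 24.99 and 27.73 FPKM in AF. The 2 groups covered nearly the same range, and the libraries of 1 group differed among themselves by more than the group means did. The log2 ratio was -0.13 (difference -0.08 ± 0.50, adjusted p = 0.969) and turned to 0.19 without AF replicate 1 and to 0.21 without PF replicate 3. Gstm7 and Gstm6, which was read within the Gstm3 entry, are direct neighbours. The related mu gene Gstm5, known chiefly from brain and testis and on the opposite strand, was measured at 2.93, 3.34 and 3.32 FPKM in PF livers and 5.52, 3.19 and 4.57 FPKM in AF (log2 ratio 0.47, adjusted p = 0.518). The mu pseudogene Gstm2-ps1 was nearly silent, with group means of 0.0133, 0.12 and 0.35 FPKM in PF, AF and AF with MNA.

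After adjustment over all genes, 2 of the 7 members passed, Gsta2 and the Gstm4 entry, against 0.326% of all genes tested. Gsta2 passed without any 1 library, with adjusted p between 0.0069 and 0.0377. The Gstm4 entry lost this stricter call without any 1 of the 6 libraries, with adjusted p between 0.053 and 0.126. The 5 calls under the threshold of the methods were kept without any 1 library.

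**Figure D2:**
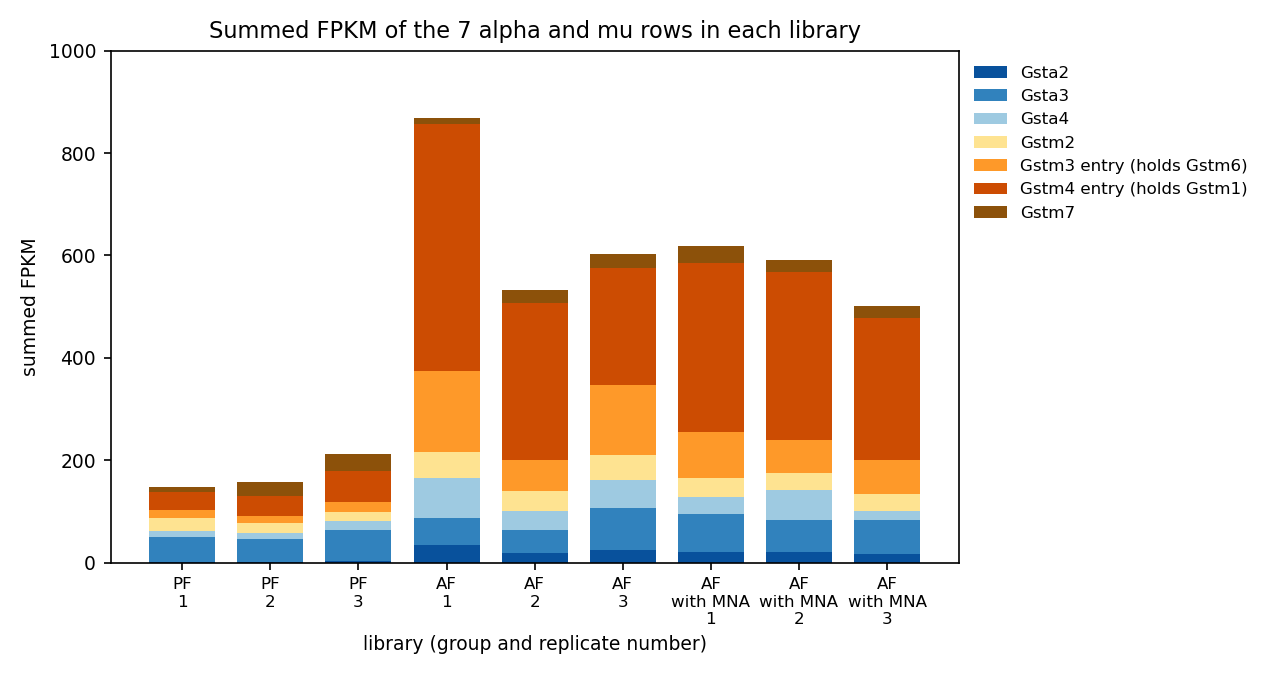
Summed FPKM of the 7 rows of listed genes in each of the 9 libraries, with alpha genes in blue shades and mu genes in yellow to brown. The PF bars reach 148 to 212 FPKM, the AF bars 533 to 869 FPKM and the AF with MNA bars 502 to 618 FPKM, and the Gstm4 entry is the largest segment in every alcohol-fed library.

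Summed over the 7 rows, the family went from 172 ± 34.7 FPKM in PF livers to 668 ± 177 FPKM in AF and 570 ± 60.9 FPKM in AF with MNA (SD, n = 3). The sums of PF and AF did not overlap. Its share of the FPKM of all named genes was 0.0840% in PF, 0.334% in AF and 0.280% in AF with MNA. The mu rows gained more than the alpha rows, with an AF sum 4.96 times that of PF for mu and 2.14 times for alpha. The alpha sum leaves out the entry that holds Gsta1, at means of 0.217 FPKM in PF and 14.2 FPKM in AF. The mu sum includes the reads of Gstm1 and Gstm6 within their shared entries. The Gstm4 entry grew from 26.0% to 50.5% of the family's sum between PF and AF, and Gstm7 shrank from 21.1% to 4.54% of the mu sum.

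The order of the levels changed with it. In AF the Gstm4 entry came first and overlapped no other entry, followed by the Gstm3 entry, Gsta3, Gsta4 and Gstm2, each overlapping the next. Gsta2 came next at 26.4 FPKM, below the range of Gstm2, and overlapped Gstm7. The Gsta1 entry was last at 14.2 ± 11.4 FPKM and overlapped Gstm7. In AF with MNA the order was the same except that Gstm7 stood above Gsta2, and those 2 did not overlap.

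The injection of MNA during alcohol feeding was set against alcohol feeding alone. None of the 7 members was called, against 1.98% of 12214 genes tested, and none passed at an adjusted p under 0.05, against 0.0491%. At an unadjusted p under 0.05 Gstm2 alone passed, against 5.22% of all genes. The mean was lower in AF with MNA for 5 of the 7 members and higher for Gsta3 and Gstm7, and the median log2 ratio was -0.43 over the members and 0.01 over all genes tested. With the 2 libraries of high intron signal left out, a choice made after seeing the data, no member was called either.

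Gstm2 was measured at 37.39, 33.10 and 32.94 FPKM in AF with MNA, each below the lowest AF library at 38.91 FPKM. It was the only member whose groups did not overlap, which held in the lower direction for 4.58% of all genes tested. The log2 ratio was -0.43 (difference -0.41 ± 0.15, unadjusted p = 0.0331, adjusted p = 0.940).

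Gsta4 was the most variable member under MNA, at 32.40, 58.20 and 17.75 FPKM. Replicate 2 lay within the AF range and replicate 3 near the highest PF library. Its log2 ratio against AF was -0.66 (difference -0.74 ± 0.45, adjusted p = 0.966). Without AF with MNA replicate 2 the log2 ratio was -1.19 with an unadjusted p of 0.0259, past the threshold of the methods. Leaving out AF with MNA replicate 3, the lowest of its group, or AF replicate 1, the highest AF library at 77.89 FPKM, made the difference smaller.

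The Gstm3 entry was measured at 89.41, 64.80 and 67.48 FPKM in AF with MNA, inside the AF range, with a log2 ratio of -0.68 (unadjusted p = 0.175, adjusted p = 0.966). Only AF replicate 2, at 59.85 FPKM, lay below them, and without it the log2 ratio was -0.998 (unadjusted p = 0.00292, adjusted p = 0.497), just short of the fold threshold. Leaving out AF replicate 1 or AF replicate 3, at 158.18 and 137.01 FPKM, made the difference smaller. Gsta2, at 20.07, 20.93 and 17.30 FPKM, had a log2 ratio of -0.44 (adjusted p = 0.964), and its 3 libraries lay close together, with replicate 3 below the lowest AF library. The Gstm4 entry, at 329.43, 328.10 and 276.84 FPKM, had a mean of 311 ± 30.0 FPKM (SD, n = 3), with a log2 ratio of -0.13 that turned to 0.21 without AF replicate 1. For the Gsta1 entry, at 3.65, 7.24 and 3.15 FPKM, the log2 ratio of -1.60 (unadjusted p = 0.0657, adjusted p = 0.940) leaned on AF replicate 1, without which it was -0.72. Leaving out AF with MNA replicate 2 or AF replicate 2 brought its unadjusted p to 0.0471 and 0.0179, with log2 ratios of -2.06 and -1.98, and with all 9 libraries in the fit it was 0.0347.

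Gsta3, at 75.69, 61.81 and 65.59 FPKM, and Gstm7, at 34.05, 23.88 and 24.05 FPKM, overlapped the AF values, with log2 ratios of 0.20 and 0.37. The limma differences were 0.24 ± 0.24 for Gsta3 and 0.43 ± 0.36 for Gstm7 (SE), each near the size of its own error. Without AF replicate 3, a library of high intron signal, the log2 ratio of Gsta3 was 0.50 (unadjusted p = 0.0307, below the fold threshold) and that of Gstm7 0.61, and without AF replicate 1 that of Gstm7 was 0.05.

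**Figure D3:**
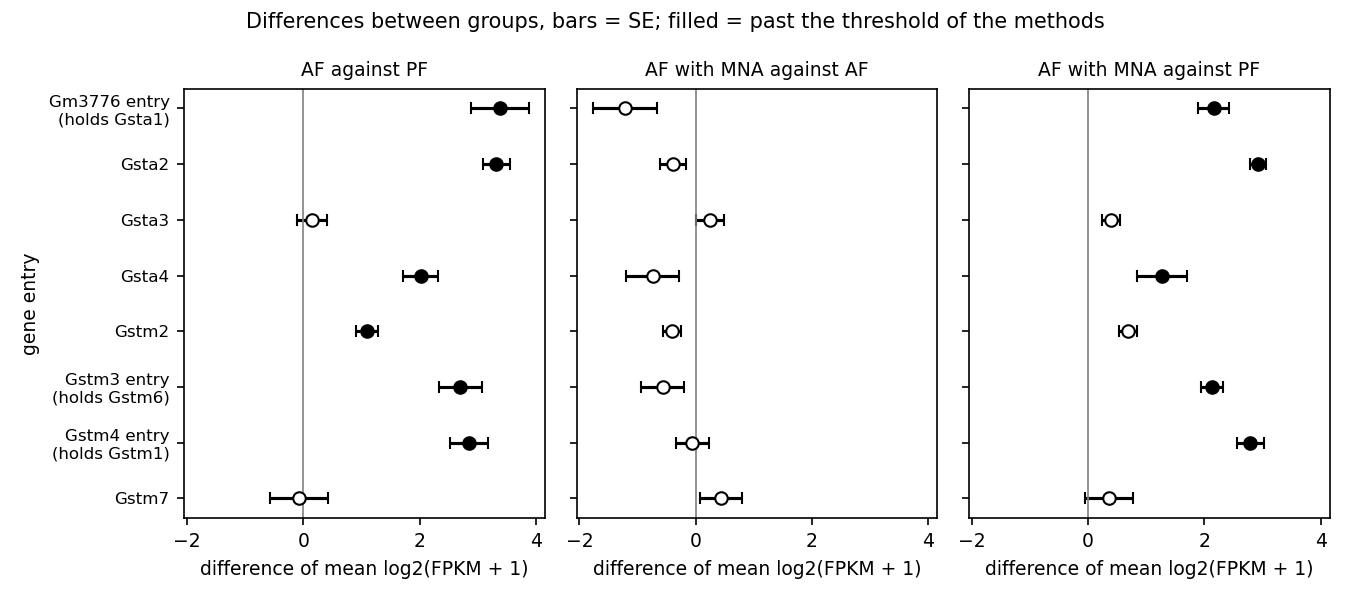
Difference between group means on the log2(FPKM + 1) scale with its standard error from limma for 8 entries, in AF against PF, AF with MNA against AF, and AF with MNA against PF. Filled points passed the threshold of the methods, and in the middle panel no point is filled.

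Against PF, the mice given MNA with alcohol had 4 of the 7 members called higher, Gsta2, the Gstm4 entry, the Gstm3 entry and Gsta4, against 1.94% of 12276 genes tested. Gsta2 was 11.5-fold higher (difference 2.93 ± 0.14, adjusted p = 0.00304), the Gstm4 entry 6.84-fold (2.79 ± 0.23, adjusted p = 0.0171) and the Gstm3 entry 4.59-fold (2.13 ± 0.18, adjusted p = 0.0171). Those 3 passed at an adjusted p under 0.05, against 0.432% of all genes. The differences are on the log2(FPKM + 1) scale. Every member but Gstm7 was higher in each AF with MNA library than in any PF library, 6 of 7, against 9.54% of all genes tested. For Gsta4 and Gsta3 the margin was narrow, with the lowest AF with MNA library at 17.75 and 61.81 FPKM and the highest PF library at 17.61 and 60.90 FPKM.

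Gsta4 was 2.76-fold higher on average, but this call was the least firm of the 4 (difference 1.28 ± 0.43, unadjusted p = 0.0245, adjusted p = 0.283). The call was lost without AF with MNA replicate 1 (unadjusted p = 0.0598), AF with MNA replicate 2 (log2 ratio 0.94), PF replicate 1 (unadjusted p = 0.0700) or PF replicate 2 (unadjusted p = 0.0746). Gstm2 had a log2 ratio of 0.70 with an unadjusted p of 0.00464 and Gsta3 of 0.39 with an unadjusted p of 0.0433, both short of the fold threshold. Gstm7 had a log2 ratio of 0.24, which was -0.11 without PF replicate 1. The Gsta1 entry was called at a mean of 4.68 ± 2.23 FPKM against 0.217 ± 0.115 FPKM (difference 2.16 ± 0.27, adjusted p = 0.0450).

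At the stricter level single libraries mattered here as well. The adjusted p of the Gstm3 entry passed 0.05 without AF with MNA replicate 3 (0.0574) or PF replicate 1 (0.0600). That of the Gstm4 entry did so without AF with MNA replicate 2 (0.0508), AF with MNA replicate 3 (0.0525) or PF replicate 2 (0.0540). Gsta2 kept an adjusted p of at most 0.0177 without any 1 library.

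The Gsta3 locus carries the lncRNA Gm28836, the only lncRNA transcript of the table that overlapped a member. Its transcript ENSMUST00000185842 has 2 exons at chr1:21250359-21271593 on the minus strand, antisense to Gsta3, and the libraries kept the strand. Gm28836 was measured at 9.71, 7.89 and 11.2 FPKM in PF, at 2.85, 2.75 and 11.5 FPKM in AF and at 9.01, 6.85 and 8.72 FPKM in AF with MNA. AF replicates 1 and 2 were lower than every other library, and AF replicate 3 was the highest. AF replicate 3 was also the highest library for Gsta3, and its intron signal was high; their part in this was not tested. No circRNA of the 4486 listed came from a member.

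**Figure D4:**
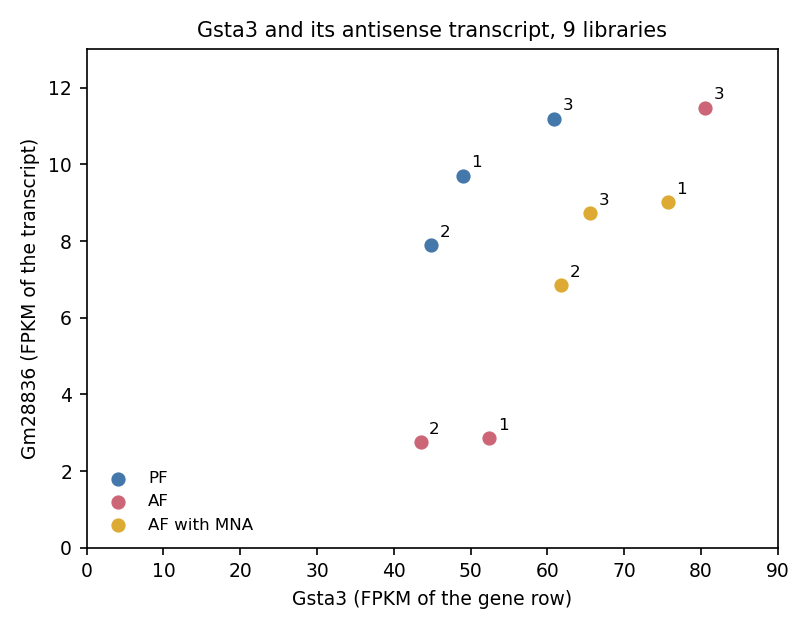
FPKM of the Gsta3 row against FPKM of the antisense transcript Gm28836 in the 9 libraries, each point 1 library with its replicate number. AF replicates 1 and 2 lie at 2.85 and 2.75 FPKM of Gm28836, below all other libraries, with Gsta3 at 52.45 and 43.51 FPKM.

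The levels of the members were also compared across libraries. Over the 9 libraries, on the log2(FPKM + 1) scale, Pearson's r among the 10 pairs of the 5 members that rose was between 0.825 (Gsta4 and Gstm2) and 0.981 (Gsta2 and the Gstm4 entry), and the 9 points share the step from PF to the alcohol-fed groups. Taken as deviations from the group means, r in the same pairs ranged from -0.22 (Gstm2 and the Gstm4 entry) to 0.840 (Gsta2 and the Gstm3 entry), so the libraries of a group did not deviate alike in all of them. Gsta3, which was not called, gave 0.70 with the Gstm3 entry in these deviations. Without that step removed, r for Gstm7 was between -0.24 and 0.45 with the other entries, and for Gsta3 between 0.27 and 0.52. These are descriptions over 9 libraries that share depth and scaling.

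Among 11789 genes outside the family, those whose levels followed the mean profile of the 7 members most closely over the 9 libraries were Kifap3 (Pearson's r = 0.979), Gm7208 (0.976), Gm5424 (0.969), Aldh5a1 (0.965) and Tars (0.964). Aldh5a1, the mitochondrial succinate semialdehyde dehydrogenase, stood at 4.17 FPKM in PF, 10.7 FPKM in AF and 11.1 FPKM in AF with MNA. Kifap3, an adaptor of kinesin motors, stood at 1.18, 2.14 and 1.9 FPKM in the same order. These genes were picked for their likeness to the profile, so their differences between groups are given with no test.

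The enzymes and pumps around the transferases were read from gene lists. Of the 15 genes listed for other classes of glutathione transferase, 13 had a row and 9 were tested. The tested genes were of the pi, theta, zeta, omega and kappa classes and the microsomal enzymes. Gstp1 and Gstp2 had no row of their own name, so the pi class was read from the Gstp3 row alone. That row stood at 84.7 FPKM in PF livers and 65.6 FPKM in AF (adjusted p = 0.636). In AF 1 of the 9 was called higher and none lower, beside 5 of 7 for the alpha and mu rows and 1.95% of all genes tested. The called gene was Mgst3, a membrane-bound transferase (log2 ratio 2.46, unadjusted p = 0.00164, adjusted p = 0.125). It stood at 3.60, 1.28 and 2.72 FPKM in PF livers and 17.47, 7.16 and 17.29 FPKM in AF. The most abundant microsomal enzyme, Mgst1, stood at 764 ± 74.7 FPKM in PF livers and 641 ± 78.7 FPKM in AF (adjusted p = 0.622). The median log2 ratio of these classes was 0.19.

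Of the genes that make and recycle glutathione, 1 of 12 was called higher in AF, against 1.95% of all genes tested. Gclc, the catalytic subunit of the enzyme for the first step of glutathione synthesis, had means of 3.67 FPKM in PF livers and 7.51 FPKM in AF (log2 ratio 1.03, unadjusted p = 0.0128, adjusted p = 0.294). Its regulatory partner Gclm had 13.9 and 9.00 FPKM (log2 ratio -0.62, adjusted p = 0.502).

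Of the pumps that carry glutathione conjugates out of cells, 2 of 5 were called higher in AF, both also at an adjusted p under 0.05. Of all genes tested, 1.95% were called higher. Abcc4 went from 0.31, 0.32 and 0.25 FPKM in PF livers to 7.43, 6.12 and 5.04 FPKM in AF (log2 ratio 4.40, adjusted p = 0.00293), and Abcc3, a pump of the sinusoidal membrane, from 30.57, 29.78 and 27.49 FPKM to 107.00, 80.83 and 84.23 FPKM (log2 ratio 1.63, adjusted p = 0.0143). The canalicular pump Abcc2 had means of 47.5 and 58.9 FPKM and was not called (adjusted p = 0.489).

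**Figure D5:**
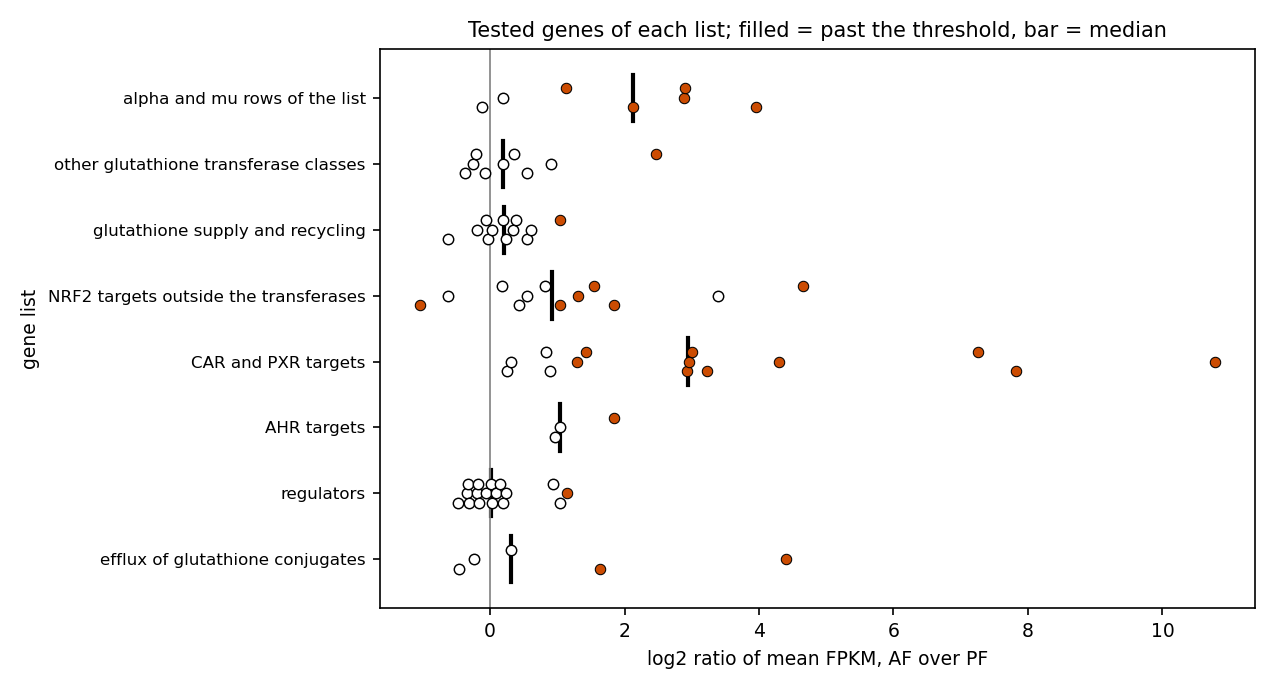
Log2 ratio of mean FPKM in AF over PF for each tested gene of the gene lists, with filled points for genes past the threshold of the methods and a black bar at each list's median. The medians are 2.12 for the alpha and mu rows, 2.94 for the CAR and PXR targets, 0.92 for the NRF2 targets and 0.01 for the regulators. The lists were chosen with earlier results of these data known.

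The known regulators of the family and their other targets were set beside the members. Of the CAR and PXR targets, 10 of 14 were called higher in AF and none lower, 6 of them at an adjusted p under 0.05. Of all genes tested, 1.95% were called higher, and 0.326% passed at an adjusted p under 0.05 in either direction. The lists were chosen with earlier results of these data known, so their counts and medians are descriptions. The cytochrome P450 Cyp2b10, the classical CAR target, stood at 0.28, 0.22 and 3.33 FPKM in PF livers and 259.56, 194.66 and 132.88 FPKM in AF (adjusted p = 0.0073), and Cyp2c29 and Cyp2a5 had log2 ratios of 3.22 and 3.01 (adjusted p = 0.0073 and 0.00215). Of the NRF2 targets outside the family, 5 of 12 were called higher (Cbr3, Ephx1, Srxn1, Nqo1 and Gclc) and 1 lower, the lipogenic malic enzyme Me1. Cbr3, a carbonyl reductase, passed at an adjusted p of 0.0397, with 0.04, 0.38 and 0.00 FPKM in PF livers and 3.29, 4.95 and 2.33 FPKM in AF. Of the AHR targets 1 of 3 was called, Nqo1, which is on both lists. Cyp1a2, the main AHR target of liver, fell just short of the fold threshold, at 294.65, 352.77 and 302.22 FPKM in PF livers and 703.81, 500.76 and 653.03 FPKM in AF (log2 ratio 0.97, unadjusted p = 0.00179, adjusted p = 0.127).

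Of the genes of the regulators themselves, 1 of 17 was called, while 4.3% of all genes tested were called in either direction. The called gene was Maff, a small Maf partner of NRF2, at 2.07 ± 0.391 FPKM in PF livers and 4.58 ± 0.270 FPKM in AF (adjusted p = 0.0831). Nfe2l2, which encodes NRF2, had a log2 ratio of -0.32 (adjusted p = 0.846), and Nr1i3, which encodes CAR, stood at 14.18, 12.66 and 54.10 FPKM in AF against 11.31, 16.02 and 12.12 FPKM in PF (log2 ratio 1.04, adjusted p = 0.666). Esr1, the estrogen receptor gene, fell just short of the fold threshold at a log2 ratio of 0.93 (unadjusted p = 0.00459, adjusted p = 0.201). The RNA levels say nothing of the activity of these factors, which was not measured.

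In AF with MNA against AF, no gene of any of these lists was called, while only 1.98% of all genes tested were called. Against PF, AF with MNA had 10 of 14 CAR and PXR targets, 5 of 12 NRF2 targets and 2 of 5 pumps called higher. So were 1 of 9 transferases of other classes and 1 of 12 genes of glutathione supply, against 1.94% of all genes tested. None of these lists had a gene called lower. The NRF2 targets called there were Ephx1, Cbr3, Nqo1, Gclc and Hmox1. Srxn1, called in AF against PF, was not called at a log2 ratio of 0.71. Of the regulators Nr1i3 was called there, at 25.79, 47.22 and 18.31 FPKM (log2 ratio 1.21, adjusted p = 0.273).

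Marker genes of the cell types in the tissue were set beside the members. In AF against PF, 1 of 5 hepatocyte markers (Tat) and 1 of 5 macrophage markers (Marco) were called higher, 1 of 2 blood markers (Alas2) lower, and none of the 5 endothelial, 6 stellate, 2 cholangiocyte or 1 lymphocyte markers tested, while 4.3% of all genes tested were called in either direction. The summed endothelial markers ranged from 19.7 to 24.3 FPKM in PF livers and from 24.9 to 36.2 FPKM in AF, without overlap. The cholangiocyte markers ranged from 3.27 to 4.31 FPKM and from 4.86 to 9.12 FPKM, also without overlap. Most of that sum was Spp1, at 2.97, 2.09 and 2.56 FPKM in PF livers and 3.39, 4.59 and 6.66 FPKM in AF. Krt19, Krt7 and Epcam stood at 0.64 FPKM or less in every library and overlapped between these groups. The summed hepatocyte, macrophage, stellate, lymphocyte and blood markers overlapped between these groups. In AF with MNA against PF, Marco was called higher and Alas2 lower, the summed endothelial markers, at 30.4 to 33.8 FPKM in AF with MNA, again did not overlap PF, and the other 6 sums overlapped. The part of these shifts in the members' differences was not tested.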

How the data were processed

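Libraries depleted of ribosomal RNA, strand-specific and read from both ends, were made from liver RNA, 3 each for PF, AF and AF with MNA. The authors deposited gene FPKM values and lncRNA transcript FPKM values made with StringTie 1.3.4 from transcripts merged over the libraries, with reads trimmed by cutadapt 1.9; HISAT2, TopHat, FastQC and edgeR are also named in the submitters' processing notes. The genome build was not given in the sources used here; identifiers of 7841 known lncRNA transcripts matched GENCODE M21 (GRCm38), and 7708 of these had equal start and end. The deposited circRNA count is of back-splice reads, and the authors' normalized circRNA signal is a fixed fraction of that count in each library, which gave the relative depth. Coverage, coding scores and the authors' own comparisons were not used.

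Groups came from the sample labels. Whether each library came from a single mouse is not stated outright, so p-values measure the spread between these libraries. Merging of overlapping transcripts left 437 entries with at least 2 coding genes. Genes averaging 0.5 FPKM or more in the 6 libraries of a comparison entered the fit, made on log2(FPKM + 1) by limma 3.58.1 (lmFit; eBayes with an intensity trend) in R 4.3.3, and p-values were adjusted by Benjamini-Hochberg over all tested genes. The fold threshold used the ratio of group mean FPKMs. The fit was tested on simulated data. Sequences and motif windows came from RefSeq (GRCm38.p6) and were aligned with Biopython 1.88; Gsta4 had no window there. The plan was to name at most 4 genes past the threshold from each gene list, by the smallest p. Regulators, marker genes and the 5 genes of most similar profile were also named. Departing from this plan, every NRF2 target called in a comparison with PF was named. Cyp2b13 was left out of the results, although its p in AF against PF was smaller than that of Cyp2b10. Mgst1, Gstp3, Gclm, Abcc2 and Cyp1a2 were named after their values were seen. The members and lists were chosen with earlier results of these data known. Alternatives were another pseudocount, scaling, filter, trend, fold measure, fit over all 9 libraries, a replicate block, removal of merged entries and each library left out in turn.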

Additional observations from a re-analysis of the deposited data

How the results depend on the processing

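Of 359 log2 folds of the 7 members and the entry holding Gsta1 under the alternatives, 345 kept direction and side of the threshold, 5 lost a call (all Gsta4 in AF with MNA against PF), 4 gained one in AF with MNA against AF (Gsta4 once, the Gsta1 entry with all 9 libraries, without AF with MNA replicate 2 and without AF replicate 2) and 5 reversed, none of the latter called. In AF against PF, Gstm7 was 0.19 without AF replicate 1 and 0.21 without PF replicate 3, and Gsta3 was -0.11 without AF replicate 3; in AF with MNA against AF, the Gstm4 entry was 0.21 without AF replicate 1; in AF with MNA against PF, Gstm7 was -0.11 without PF replicate 1. Over all libraries left out singly these folds ranged from -0.48 to 0.21 (Gstm7) and -0.11 to 0.37 (Gsta3), from -0.34 to 0.21, and from -0.11 to 0.57. The 5 members called in AF against PF became 3 without merged entries, since only 5 members were then tested, and the 4 in AF with MNA against PF became 2; at adjusted p the 2 and 3 members each became 1. With all 9 libraries in the fit 4 members passed at adjusted p in AF against PF, and 1 with every gene above 0. Without single libraries the counts were 5 to 5 (adjusted p 1 to 2), 0 to 1 in AF with MNA against AF (Gsta4, without AF with MNA replicate 2) and 3 to 4 (adjusted p 1 to 3).

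Replicate numbers did not pair the libraries: correlations of deviations between same-numbered libraries lay between -0.08 and 0.06. With the replicate block, members past adjusted p were 1 in AF against PF (Gsta2, adjusted p = 0.0455) and 0 in AF with MNA against PF, where 3 stayed past the threshold of the methods; over all genes the adjusted counts were 18, 1 and 0 in the 3 comparisons.

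Over all genes, the threshold of the methods called 527, 242 and 477 in AF against PF, AF with MNA against AF and AF with MNA against PF. It called 1183, 676 and 1105 with every gene above 0, 265, 81 and 228 at a mean of at least 2 FPKM, and 249, 99 and 229 with the limma coefficient as the fold; without single libraries 516 to 764, 211 to 367 and 467 to 545. At adjusted p the counts of 40, 6 and 53 became 25, 2 and 22 with every gene above 0, 86 and 0 in the first 2 with all 9 libraries, and 2 in the second at 2 FPKM; without single libraries they were 25 to 47, 6 to 13 and 24 to 47. Without both libraries of high intron signal, chosen after seeing the data, AF with MNA against AF had 470 calls, 3 of them at adjusted p. The cause of these shifts was not tested.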
